A study of Mus musculus with 312 samples.

Results

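The prolactin receptor and Stat5 pathway was followed through 10 genes, of 25136 genes used, in single cells of the mouse mammary gland. The 10 genes were listed by symbol and found by Entrez gene ID: the receptors Prlr and Ghr, the kinase Jak2, the transcription factors Stat5a and Stat5b, the feedback inhibitors Cish, Socs1, Socs2 and Socs3, and the transcription factor Elf5. All 10 were in the deposited counts. The choice used no measured value, although it was made with earlier results of these data known.

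RNA was measured in 312 cells from FVB/NJ mice, captured one by one on the Fluidigm C1, an instrument that makes cDNA from each cell in its own chamber. The labels call all of them basal and give no treatment, 237 from adult mice and 75 from pregnant mice, with no day of pregnancy and no animal named. The study sorted adult basal cells by surface markers. For pregnant mice it lists C1 cells of total epithelium, with no basal sort named, and it kept more of them than the 75 here. How the 75 relate to that set is not given, and their basal name rests on the labels. The study places its own C1 cells of pregnant mice at mid-pregnancy, a stage that the labels do not repeat. Adult titles come in 112 cells that carry the mark (2), called marked adult cells here, and 125 that do not, called unmarked adult cells. The labels do not explain the mark.

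Prolactin and growth hormone bind receptors of the class I cytokine family, which have no enzyme of their own and work through the bound kinase Jak2. Jak2 phosphorylates Stat5a and Stat5b, which then enter the nucleus and switch on genes that include Cish and other Socs genes, whose products damp the signal. In the mammary gland this route is known above all from luminal cells, where Prlr, Stat5a and Elf5 are needed for the growth of milk-secreting alveoli in pregnancy, and the cells measured here are labelled as basal, the contractile outer layer.

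Stat5 dimers bind the palindrome TTCNNNGAA, in which N is any base, and the promoters of the members are shown where these letters occur. RefSeq promoter windows of GRCm38.p6, from 250 bases before to 50 bases after a start, were given for 9 of the 10 genes, in 15 windows, and Socs2 had no entry. The motif reads the same on both strands and was found in 3 of the 15 windows, against 8.30% of all 32851 windows. Cish held 2 copies, at +1 and +12 from its start, and 0.457% of all windows held 2 or more. The other copies were in a second Prlr window, at -110, and in Socs3, further upstream. Each line gives 30 bases on the strand of the gene, with the motif in capitals. The windows are chr9:107296654-107296683 on the plus strand, chr15:10223785-10223814 on the plus strand and chr11:117969502-117969531 on the minus strand.
Cish: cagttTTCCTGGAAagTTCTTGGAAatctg
Prlr: ggcaaaatgagTTCTAGGAAtaagggatat
Socs3: agaaaccagccTTCTTAGAAgggagggggg
A match shows only that these letters stand there, since no binding was measured in these cells.

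Stat5a and Stat5b are neighbouring genes with similar coding sequences, which bears on how far their reads can be told apart. In GENCODE M21, 90.7% of 2294 aligned coding bases were identical. The longest identical run covered 324 bases, from base 571 to base 894 of both coding sequences, and its first 75 bases are given in lower case because they cannot be assigned to one gene.
Stat5a and Stat5b: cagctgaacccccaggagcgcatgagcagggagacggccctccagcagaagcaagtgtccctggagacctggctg
Of all stretches of 75 coding bases in Stat5a, 16.7% also occurred in Stat5b, so the split between the 2 genes is uncertain.

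Cells were retained with at least 50000 read pairs and 1000 genes, without mitochondrial and ribosomal protein genes, which left 81 of 112 marked adult, 58 of 125 unmarked adult and 71 of 75 pregnancy cells. Total reads of all 312 cells ranged from 41 to 529822. Median depth of the retained cells was 174910 assigned reads for marked adult, 101320 for unmarked adult and 230645 for pregnancy cells, and median mitochondrial shares were 9.65%, 15.6% and 18.4% of all reads. Of 11 core basal genes such as Krt14 and Acta2, at least 6 reached 100 CPM (CPM are reads per 1e6 assigned reads in the same cell) in 76 of 81, 51 of 58 and 70 of 71 cells, so the basal label held for most cells of each group. The summed CPM of 7 milk protein genes had medians of 3.60, 0 and 124 CPM in the 3 groups. Pregnancy cell 71 stood apart with 223037 CPM of milk protein genes, and unmarked adult cell 130 had all 7 pan-luminal genes and none of the core basal genes at 100 CPM, so results that rest on either are given without it too.

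Each group was 1 sample, because no animals are named, so no test was made and no difference has a replicate check. A cell counted as positive with at least 1 read after it was thinned at random to 50000 reads, and intervals on shares are exact Clopper-Pearson 95% intervals. These intervals and the exact Poisson intervals on reads cover counting error only. After this thinning the median cell held 2328 genes in marked adult, 2190.5 in unmarked adult and 3198 in pregnancy cells. Shares of single genes were not corrected for this difference. Ratios are log2 of (mean CPM + 10) over (mean CPM + 10), which understates the change of low genes.

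Prlr, the receptor for prolactin, was rare in marked adult and pregnancy cells and was found in a larger share of unmarked adult cells. At least 1 read remained after thinning in 6 of 81 marked adult cells (7.41%, interval 2.77 to 15.4%), 15 of 58 unmarked adult cells (25.9%, 15.3 to 39.0%) and 4 of 71 pregnancy cells (5.63%, 1.56 to 13.8%). The unmarked interval overlapped that of the marked cells by a small margin and did not overlap that of the pregnancy cells. How many of all genes had unmarked and pregnancy intervals apart was not computed. Titles number the retained unmarked cells from 120 to 234, and every Prlr-positive one except cell 226 lay between 120 and 155. Other members also differed by number. Before thinning, reads of Jak2 and Socs2 were in a larger share of unmarked cells 120 to 155 than of later ones. Reads of Stat5a were in a smaller share. The labels do not say what the numbers stand for, and their part in these shares was not tested. The median cell had 0 CPM in each group, and the highest marked adult, unmarked adult and pregnancy cells had 191, 12179 and 1037 CPM. Unmarked adult cell 130, with 2335 Prlr reads, held 79.8% of the summed CPM of its set, and pregnancy cell 71, with 190 reads, held 94.8%.

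The mean level of Prlr followed those cells. It was 4.47 CPM in marked adult, 263 CPM in unmarked adult and 15.4 CPM in pregnancy cells. Without cell 71 the pregnancy mean was 0.816 CPM, and without cell 130 the unmarked mean was 54.0 CPM. No pregnancy cell other than 71 exceeded 12.1 CPM. The log2 ratio of pregnancy over marked adult was 0.81 with cell 71 and -0.42 without it, so its sign turned on that cell. Over all adult cells the ratio was -2.27, it was -3.50 without cell 71, and it was -0.46 without cell 130.

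The Prlr-rich cells varied in their lineage genes. Cell 130 had 7 of 7 pan-luminal and none of 11 core basal genes at 100 CPM, and cell 71 had 6 of 7 pan-luminal and 5 of 11 core basal genes. Unmarked adult cells 135, 150 and 155 had 1360, 455 and 325 CPM of Prlr. They kept 8, 10 and 10 core basal genes, beside 2, 2 and 3 pan-luminal genes. Mitochondrial reads took 43.8%, 53.0% and 35.0% of their totals, where the median unmarked cell had 15.6%. Of 9 mature luminal genes other than Prlr, 3, 3 and 4 reached 100 CPM in cells 130, 135 and 155, the 3 unmarked cells with at least 3 of them, and cell 150 had 1. Cells 135 and 155 also carried 2 and 4 of 8 fibroblast genes and 3 and 1 of 8 endothelial genes. Cells 135, 150 and 155 held milk protein reads, with 2813 CPM in cell 135, 753 CPM in cell 150 and 8844 CPM in cell 155. Cell 120, at 259 CPM of Prlr, had a mitochondrial share of 79.5%. The part of these shares and gene lists in the Prlr level was not tested. With cells of at least 6 core basal genes alone, the ratio of unmarked over marked adult was 2.38, against 4.24 in all retained cells.

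**Figure D1:**
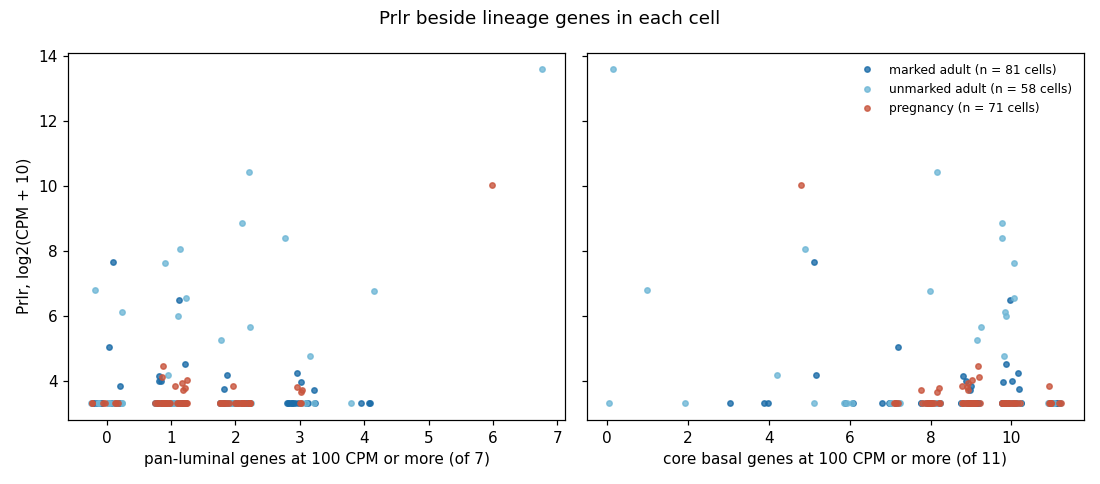
Prlr level, as log2(CPM + 10), of each of 210 cells against the number of pan-luminal genes (left, of 7) and core basal genes (right, of 11) at 100 CPM or more in the same cell, with points spread sideways at random. Unmarked adult cell 130, at 12179 CPM, and pregnancy cell 71, at 1037 CPM, lie at 7 and 6 pan-luminal genes, while the other cells with Prlr reads have 0 to 4.

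Ghr, the growth hormone receptor, was found in similar shares of the 3 groups. These were 16 of 81 marked adult cells (19.8%, 11.7 to 30.1%), 9 of 58 unmarked adult cells (15.5%, 7.35 to 27.4%) and 11 of 71 pregnancy cells (15.5%, 8.00 to 26.0%), and all 3 intervals overlapped. The median cell was at 0 CPM in each group, and the highest cells had 1632, 1560 and 426 CPM. The mean was 60.4 CPM in marked adult, 34.5 CPM in unmarked adult and 15.2 CPM in pregnancy cells. Pregnancy was lower by the mean against both sets, with log2 ratios of -1.48 and -0.82, and only the first passed 2-fold. In the unmarked set cell 145 held 77.9% of the summed CPM, and without it the mean was 7.76 CPM, below the pregnancy mean of 9.36 CPM without its own highest cell. The order of these 2 groups therefore rested on single cells.

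Jak2, the kinase bound to both receptors, was spread over more cells than either. It was found in 22 of 81 marked adult cells (27.2%, 17.9 to 38.2%), 18 of 58 unmarked adult cells (31.0%, 19.5 to 44.5%) and 30 of 71 pregnancy cells (42.3%, 30.6 to 54.6%). The pregnancy share was the highest, and its interval overlapped both adult intervals. Medians were 0, 0 and 3.49 CPM and the highest cells had 1078, 1774 and 729 CPM. Mean levels were 42.3, 52.7 and 57.7 CPM, and the log2 ratios of pregnancy over marked and unmarked adult were 0.37 and 0.11. Unmarked adult cell 156 held 58.0% of the summed CPM of its set, and the unmarked mean without it was 22.5 CPM. Without their own highest cells the means of the marked set and of pregnancy were 29.3 and 48.1 CPM.

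Stat5a differed most between the 2 adult sets among members found in many cells. In marked adult cells it ran from 0 to 3242 CPM with a median of 28.2 CPM and a mean of 346 CPM. In unmarked adult cells it ran from 0 to 735 CPM with a median of 4.91 CPM and a mean of 38.6 CPM. In pregnancy cells it ran from 0 to 1299 CPM with a median of 10.1 CPM and a mean of 104 CPM. The ranges overlapped at the low end in every group, and the difference lay in how many cells were high. At 100 CPM or more there were 36 of 81 marked adult cells (44.4%, 33.4 to 55.9%), 4 of 58 unmarked adult cells (6.90%, 1.91 to 16.7%) and 17 of 71 pregnancy cells (23.9%, 14.6 to 35.5%).

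The adult sets did not overlap in that share of Stat5a, and the pregnancy interval overlapped both. Stat5a was the 1 member of 10 whose adult intervals at 100 CPM lay apart, in a comparison where 2.17% of 3873 genes did so. Those genes were found in at least 10% of cells of an adult set, which Stat5b, Socs1, Socs2 and Elf5 were not. After thinning, when a single read counts, shares were 60.5% (49.0 to 71.2%), 37.9% (25.5 to 51.6%) and 56.3% (44.1 to 68.1%). None of the 10 members then had adult intervals apart, against 1.97% of 7577 genes. Stat5b, Socs1 and Elf5 did not reach the minimum share for these genes. The measure at 100 CPM was added for the adult sets after the data were seen. Pregnancy lay between the sets, with a log2 ratio of -1.64 over marked and 1.23 over unmarked adult cells. The highest cell held 11.6% of the summed CPM in the marked set, 32.9% in the unmarked set and 17.6% in pregnancy, against medians of 29.5%, 41.1% and 27.4% over all genes that averaged 10 CPM or more.

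Stat5b, the paralog of Stat5a, was low in every group. It was found in 7 of 81 marked adult cells (8.64%, 3.55 to 17.0%), 5 of 58 unmarked adult cells (8.62%, 2.86 to 19.0%) and 4 of 71 pregnancy cells (5.63%, 1.56 to 13.8%). The median was 0 CPM in each, and the highest cells had 499, 154 and 64.2 CPM. The summed reads were 316 (282 to 353), 43 (31.1 to 57.9) and 49 (36.3 to 64.8). Mean levels were 20.0, 7.04 and 2.39 CPM, and the log2 ratios of pregnancy were -1.28 over marked and -0.46 over unmarked adult cells. Reads from the stretches shared with Stat5a were not separated in this count.

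Cish, a target of Stat5 that competes for the activated receptor, was the member with the most reads in pregnancy. It was found in 36 of 81 marked adult cells (44.4%, 33.4 to 55.9%), 24 of 58 unmarked adult cells (41.4%, 28.6 to 55.1%) and 33 of 71 pregnancy cells (46.5%, 34.5 to 58.7%), so the shares overlapped closely. The levels were spread widely. Medians over all cells were 6.71, 0 and 7.72 CPM, those over cells with reads were 86.8, 71.2 and 42.0 CPM, and the highest cells had 3963 CPM in the marked set, 2491 CPM in the unmarked set and 5156 CPM in pregnancy. The mean was 249 CPM in marked adult, 94.5 CPM in unmarked adult and 204 CPM in pregnancy cells. Log2 ratios of pregnancy were -0.27 over marked and 1.04 over unmarked adult cells. Pregnancy cell 31 held 35.6% of the pregnancy total, and the mean without it was 134 CPM. Unmarked adult cell 138 held 45.5% of its set, and the mean without it was 52.4 CPM.

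Socs2, which restrains growth hormone signalling above all, showed the largest gap between pregnancy and marked adult cells in the share of cells. It was found in 17 of 81 marked adult cells (21.0%, 12.7 to 31.5%), 21 of 58 unmarked adult cells (36.2%, 24.0 to 49.9%) and 37 of 71 pregnancy cells (52.1%, 39.9 to 64.1%). The pregnancy interval lay above that of the marked set and overlapped that of the unmarked set. How many of all genes lay above the marked set alone was not computed, and pregnancy cells held more genes at equal depth. Medians were 0, 1.26 and 9.80 CPM, and the highest cells had 350, 1040 and 1038 CPM. Mean levels were 19.0, 59.2 and 63.4 CPM, and the log2 ratios of pregnancy were 1.34 over marked and 0.08 over unmarked adult cells. The pregnancy mean was above both adult means and passed 2-fold against the marked set alone.

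Socs3, the inhibitor best known from signalling by cytokines of the interleukin-6 family, and Socs1, known from interferon signalling, did not separate the groups. Socs3 was found in 19 of 81 (23.5%, 14.7 to 34.2%), 12 of 58 (20.7%, 11.2 to 33.4%) and 14 of 71 (19.7%, 11.2 to 30.9%) cells of the marked adult, unmarked adult and pregnancy groups. Its means were 33.4, 39.9 and 23.0 CPM, with highest cells of 595, 479 and 335 CPM and medians of 0. Socs1 was found in 4 of 81, 5 of 58 and 3 of 71 cells, with means of 1.71, 8.31 and 2.88 CPM. Unmarked adult cell 159 held 60.5% of the Socs1 total of its set. All intervals of both genes overlapped.

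Elf5, a transcription factor of alveolar and luminal progenitor cells that acts with the prolactin pathway, was almost absent from the counts. Of the marked adult cells 1 of 81 had reads, cell 60 with 166 reads and 907 CPM. That cell had 10 of 11 core basal genes at 100 CPM, beside 3 of 7 pan-luminal genes. None of the 58 unmarked adult cells had a read, which allows a share of up to 5.17% by the limit of 3 counts and of up to 6.16% by the exact interval. In pregnancy 4 of 71 cells had 12 reads in all before thinning, and the highest, cell 62, had 53.4 CPM. Over summed reads, Elf5 was at least 25.9-fold lower in the unmarked than in the marked set, against a limit of 3 reads in the set, and this rested on cell 60. Of 8 other luminal progenitor genes, Lcn2 was the most abundant by the mean, at 2091, 2530 and 2492 CPM, and Mfge8 had means of 333, 1505 and 974 CPM. The other 6 had a median of 0 CPM in each group, Kit among them with means of 0.214, 3.11 and 0.616 CPM and Aldh1a3 with 0, 1.55 and 0.733 CPM.

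**Figure D2:**
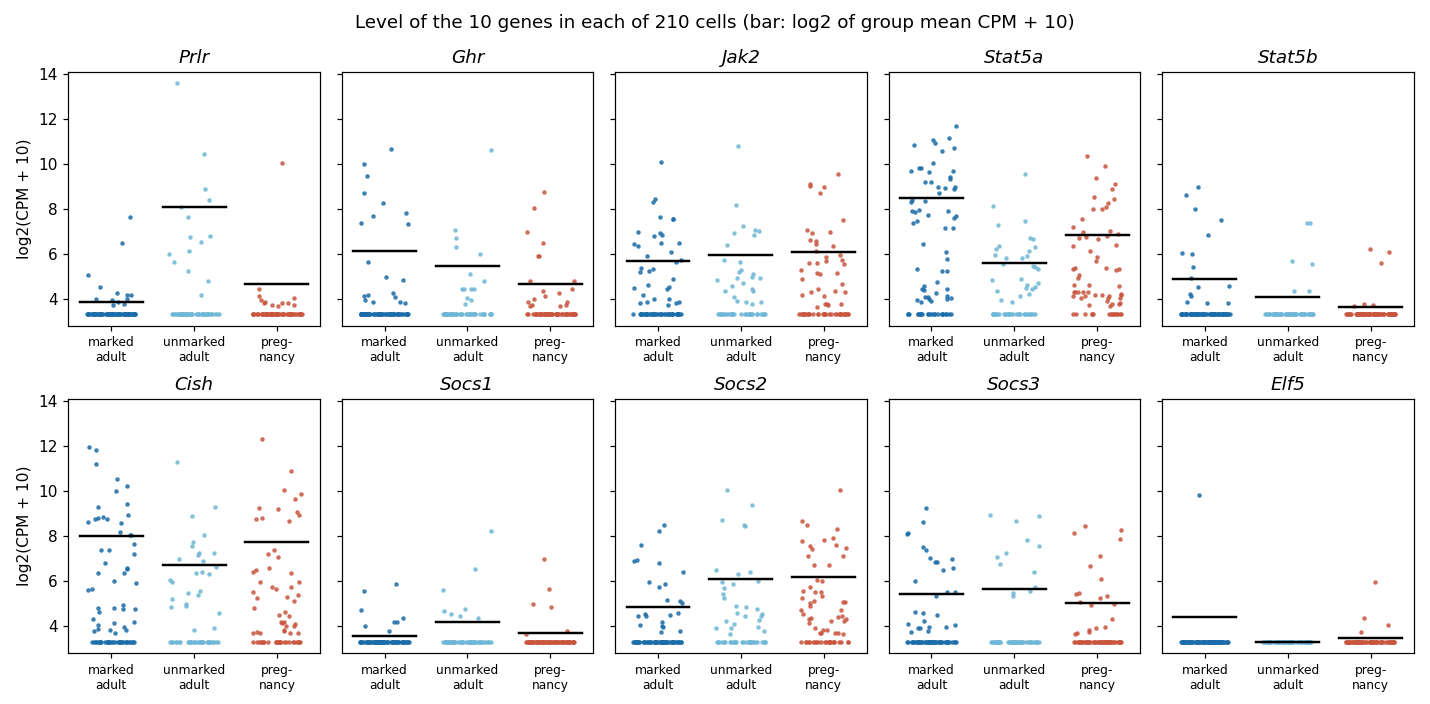
Level of each of the 10 genes, as log2(CPM + 10), in every retained cell (81 marked adult, 58 unmarked adult and 71 pregnancy cells), with 1 point per cell spread sideways at random and a black bar at log2 of the group mean plus 10. Most points lie at 0 CPM, and the bars of Prlr in unmarked adult cells and of Elf5 in marked adult cells are set by a few cells or 1 cell.

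**Figure D3:**
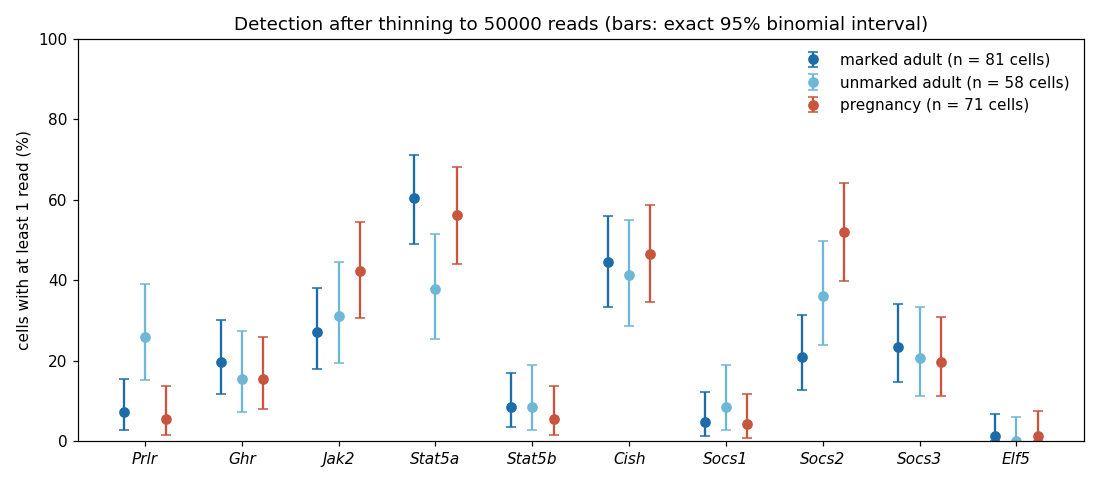
Share of cells with at least 1 read after thinning to 50000 reads, in percent, for each gene and group, with exact 95% binomial intervals. Stat5a is found in 60.5%, 37.9% and 56.3% of marked adult, unmarked adult and pregnancy cells. The pregnancy interval lies apart from 1 adult interval for Prlr and for Socs2 and from both for no gene. How many of all genes lie apart from 1 adult interval was not computed.

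Counted over the members, no difference between pregnancy and adult cells passed the rule of size. A gene passed when its ratio was at least 2-fold in the same direction against all adult cells and against each adult set. This held for 0 of 10 members with and without cell 71, beside 14.5% of the 9306 genes that averaged 10 CPM or more in pregnancy or adult cells, of which 9.83% were higher and 4.72% lower in pregnancy. Without cell 71 the log2 ratios of the other 9 members over all adult cells moved by 0.03 at most. Of the members 8 reached the minimum level, and Socs1 and Elf5 did not. The median log2 ratio of the 10 members was -0.53 over all adult cells, with 3 above and 7 below 0, against a median of 0.01 over the 9306 genes. Detection intervals in pregnancy lay apart from both adult intervals for 0 of 10 members, beside 11.8% of 8661 genes. Those genes were found in at least 10% of cells of a group, which Stat5b, Socs1 and Elf5 were not.

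Between the 2 adult sets a single ratio decided, which is a looser rule. With 2-fold or more in unmarked over marked adult cells, 2 of 10 members were higher, Prlr at 4.24 and Socs2 at 1.25, beside 17.4% of 9014 genes. Lower were 3 of 10, Stat5a at -2.87, Cish at -1.31 and Elf5, beside 19.1% of the same genes. With 10 members, 2 and 3 calls lie near these shares of all genes. The median of the 10 members was -0.23, also with Elf5 set at its limit, against -0.06 over all genes tested. Without cell 130 the Prlr ratio was 2.15. Genes of other cell types also differed between the sets. The summed CPM of 8 fibroblast genes had medians of 28.8 in unmarked and 4.22 in marked cells. For 8 endothelial genes the medians were 2.05 and 0 CPM and the means 263 and 2.15 CPM, the first falling to 134 CPM without cell 169. Of 8 immune genes the summed medians were 0 CPM in both sets, and the means were 8.06 CPM in unmarked and 1250 CPM in marked cells, or 74.1 CPM in the latter without cell 19. The part of cell types, depth, mitochondrial share and title number in these ratios was not tested.

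**Figure D4:**
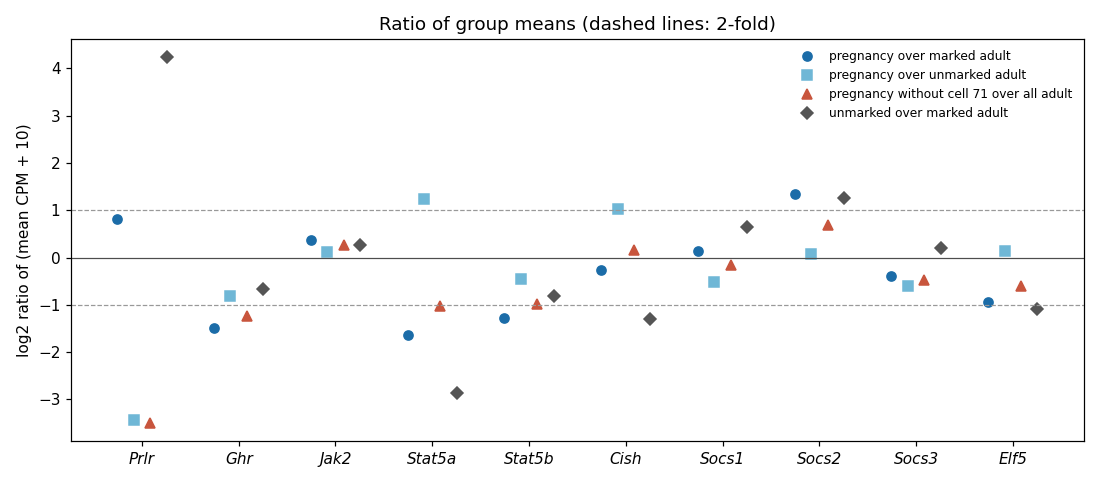
Log2 ratio of (mean CPM + 10) for each gene, for pregnancy over each adult set, pregnancy without cell 71 over all adult cells, and unmarked over marked adult cells, with dashed lines at 2-fold. For Stat5a the ratios over the marked and the unmarked set lie on opposite sides, at -1.64 and 1.23, and Elf5 has no reads in unmarked cells, so its last ratio depends on the 10 CPM added.

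Levels between genes were compared per kilobase of exon, as mean RPKM. Cish led in each group by the mean, at 115, 43.7 and 94.5 RPKM. By the median cell Cish led in no group, at 3.10, 0 and 3.57 RPKM. Stat5a led by the median in marked and unmarked adult cells, at 7.25 and 1.26 RPKM, and Socs2 in pregnancy at 3.63 RPKM. By the mean Stat5a was second in marked adult cells at 88.9 RPKM and in pregnancy at 26.7 RPKM, but sixth in unmarked adult cells at 9.92 RPKM. Prlr was last in marked adult cells at 0.333 RPKM, the third in unmarked adult cells at 19.6 RPKM and eighth in pregnancy at 1.15 RPKM. Without cell 130 it was eighth in unmarked adult cells at 4.03 RPKM, and without cell 71 it was last in pregnancy at 0.0609 RPKM. In summed reads of the 10 members, Prlr made up 51.4% in the unmarked set, against 0.425% in the marked set and 2.45% in pregnancy. Its share was 10.5% in the unmarked set without cell 130 and 0.161% in pregnancy without cell 71.

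Few cells held reads of the members of the route together, and single members were also missed in many cells. Reads of Prlr or Ghr together with Jak2 and with Stat5a or Stat5b were found, after thinning, in 7 of 81 marked adult cells (8.64%, 3.55 to 17.0%), 2 of 58 unmarked adult cells (3.45%, 0.420 to 11.9%) and 4 of 71 pregnancy cells (5.63%, 1.56 to 13.8%). By themselves, Prlr or Ghr was found in 27.2%, 31.0% and 19.7% of cells, and Jak2 in 27.2%, 31.0% and 42.3%. Stat5a or Stat5b was found in 63.0%, 43.1% and 59.2%. Whether the joint counts differ from what these shares alone would give was not tested. Cish reads without reads of Prlr or Ghr were found in 25, 17 and 27 cells (30.9%, 29.3% and 38.0%), of 36, 24 and 33 cells with Cish. A receptor without a read was not detectable at this depth, which does not show it absent. The median cell had reads of 2 members in each group, and 4 or more were found in 9, 11 and 12 cells. Cish and Stat5a did not go together closely. Of the Cish-positive cells 66.7%, 37.5% and 57.6% had Stat5a reads in marked adult, unmarked adult and pregnancy cells, beside 60.5%, 37.9% and 56.3% of all cells. Socs2 reads were in 22.2%, 45.8% and 66.7% of the Cish-positive cells of these groups, beside 21.0%, 36.2% and 52.1% of all cells. No pair was tested.

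The genes whose levels were most like those of Jak2, Stat5a and Cish were only weakly so. Over 2659 genes found in at least 25% of cells of each group, the smallest of the 3 within-group Pearson correlations of log2(thinned CPM + 10) was highest for Trp53bp1, Auts2 and Id4 with Jak2, at 0.201, 0.200 and 0.196. It was highest for Bdnf, Txnrd1 and Hnrnpd with Stat5a, at 0.217, 0.205 and 0.200, and for Icam1, Scpep1 and Tgoln1 with Cish, at 0.197, 0.186 and 0.181. The correlations ran over 81, 58 and 71 cells that share library preparation within their group. Values this low in sparse counts single out no gene.

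Of 63 other genes of the pathway, in 5 lists, 1 was higher and 4 were lower in pregnancy by the same rule, beside 9.83% and 4.72% of all genes tested. Of the 63 genes 52 reached the minimum level. Median log2 ratios over all adult cells were 0.04 for 8 JAK kinases and STAT factors, -0.20 for 13 SOCS, PIAS and phosphatase inhibitors and 0.00 for 12 adaptors and kinases at the receptor. They were -0.13 for 15 targets and partners and -0.42 for 15 other cytokine receptors, against 0.01 over all genes tested. With Gab2, which had no read in pregnancy, at its limit the median of the adaptors was -0.01.

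The 4 pathway genes that were lower were Socs6, a relative of the Socs members, and the cytokine receptors Il4ra, Csf2rb and Ifngr1. Their log2 ratios over all adult cells were -1.28, -1.74, -2.56 and -2.26. Epor, the erythropoietin receptor, was higher at 1.61, and pregnancy cell 43 held 99.2% of its summed CPM. In the unmarked adult set the highest cell held 84.8% of Socs6, 86.7% of Il4ra, 94.3% of Csf2rb and 83.7% of Ifngr1. With the highest cell of each group left out gene by gene, none of the 5 passed and Irs2, an adaptor of insulin and cytokine receptors, was the only pathway gene that did.

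The gene of each list with the highest RPKM averaged over the 3 groups is given beside the members. Ptpn1, Irs2 and Osmr were not the highest of their list in every group. Jak1, the kinase of interferon and interleukin-6 receptors, had 142, 137 and 155 RPKM in marked adult, unmarked adult and pregnancy cells, against 8.40, 10.5 and 11.5 RPKM for Jak2. Osmr, the receptor for oncostatin M, had 82.1, 74.4 and 48.0 RPKM, against 0.333, 19.6 and 1.15 RPKM for Prlr, or 4.03 and 0.0609 RPKM in the last 2 groups without cells 130 and 71. Id2, a partner gene needed in alveolar cells, had 308, 181 and 233 RPKM. Ptpn1, a phosphatase that acts on Jak2, had 9.99, 24.4 and 32.1 RPKM and Irs2 had 21.5, 10.4 and 40.4 RPKM. None of these 5 genes passed the rule between pregnancy and adult cells.

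**Figure D5:**
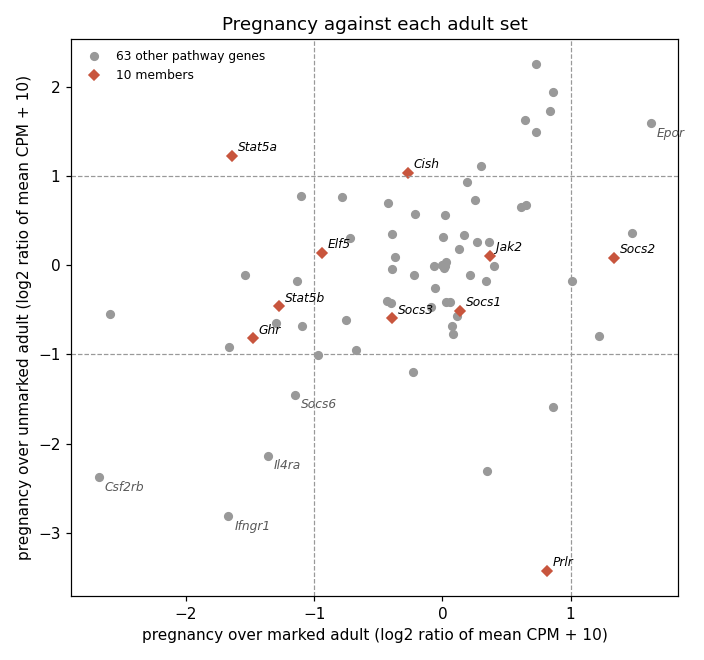
Log2 ratio of (mean CPM + 10) for pregnancy over marked adult cells (horizontal) and over unmarked adult cells (vertical), for the 10 members (diamonds) and 63 other pathway genes (circles), with dashed lines at 2-fold. No member lies beyond 2-fold in the same direction on both axes, while Epor lies above and Socs6, Il4ra, Csf2rb and Ifngr1 lie below.

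Where the genes lie may bear on 3 of the counts. In GRCm38, Prlr (chr15:10177238-10349190), Ghr (chr15:3317755-3583352) and Socs2 (chr10:95383903-95417321) each overlap 1 long non-coding RNA gene, Gm41268, Gm41254 and Gm33230. These overlaps are of whole gene spans, and overlap of exons was not computed. Counts cover exons, and no source used here says if they are stranded, so the gene of a read is uncertain where exons of a pair overlap. The other 7 members overlap no annotated gene, Stat5b (chr11:100780731-100859004) and Stat5a (chr11:100859351-100885169) lying side by side.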

How the data were processed

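The authors deposited raw counts, whole numbers of read pairs for each Entrez gene in each cell. Per the study's methods and the submitters' processing notes, the authors aligned read pairs to mm10 with Subread 1.5.0 and counted them per gene with featureCounts on its built-in RefSeq annotation. Strand and the handling of reads with several matches are not given in the sources used here, and counts carry no molecular identifiers, so PCR copies count separately. A deposited table of the whole series was not used here.

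Of 27179 gene IDs, 25275 had a symbol in RefSeq annotation of GRCm38.p6, and the other 1904 held 1.66% of reads. Without 15 mitochondrial and 124 ribosomal protein genes, 25136 genes remained. CPM were scaled to reads in these genes, and RPKM used the exon lengths in the files. Total reads per cell ranged from 41 to 529822, and 3 counts were taken as the limit of a 0. No doublet caller was run, and no cells had identical counts.

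The 10 members, the 5 pathway lists and the 11 marker lists were chosen with earlier results of these data known. All members were named. Pathway genes were named when past 2-fold or highest in mean RPKM of their list, genes most like a member by correlation, and marker genes where a member's result is set beside them. Alternatives changed the pseudocount, cell filter, scaling, averaging, thinning and the cells left out. Those without adult cell 130 and without cells that had 3 or more pan-luminal genes at 100 CPM, and all interval and single-gene alternatives for the 2 adult sets, were chosen after seeing the data. Scripts used Python 3.11.15, numpy 2.4.6 and scipy 1.17.1 and were tested on simulated data. The genes scored there averaged at least 100 CPM, so that test does not cover members at lower levels.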

Additional observations from a re-analysis of the deposited data

Results flagged for a closer look

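Cells left out for low depth also held reads of the 10 members, above what a count of 0 allows. In 31 marked adult cells they were 0.0641% of assigned reads, against 0.0736% in the retained cells. In 67 unmarked adult cells they were 0.104%, against 0.0727%, and 340 of these 751 reads were of Prlr. In 4 pregnancy cells they were 0.0299%, against 0.0506%. No comparison uses these cells, except the alternative with a lower filter.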

How the results depend on the processing

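Of 10 members, 0 passed 2-fold between pregnancy and adult cells, but 2 (Stat5b and Ghr, lower) did with a pseudocount of 1 CPM, and 1 (Ghr) did with at least 100000 reads and 1500 genes or with reads summed over cells. The 5 pathway genes became 14 with 1 CPM, 0 with 100 CPM and 1 with the highest cell of each group left out. The 5 members past 2-fold between the adult sets became 2 (Prlr and Stat5a) with 100 CPM and 1 (Stat5a) with the mean of log2 values. Members with adult detection intervals apart went from 0 to 1 (Stat5a) with thinning to 20000 reads, at 100 CPM, or with at least 100000 reads and 1500 genes, and to 2 (Prlr and Stat5a) with 2 reads required. The cause was not tested. Of 53 recomputed counts, 41 stayed within 1.5 times. Single values moved by more than counting error in 67 of 120 recomputed ratios between the adult sets, 59 of 130 of pregnancy over all adult cells and 55 of 220 detection shares.

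Of the 5 member ratios past 2-fold between the adult sets, none took the opposite sign, but that of Elf5, -1.08, became 0 with the highest cells left out or without cells of 3 or more pan-luminal genes. Ratios of pregnancy over each adult set alone are not among these values. Stat5a between the adult sets ran from -3.65 to -1.69, and Prlr from 0.82 to 5.59. Over all adult cells the sign of Prlr, Stat5a, Stat5b, Socs1, Socs2, Socs3 and Ghr held in 13 of 13 alternatives, that of Jak2 and Cish in 12, and that of Elf5 in 10 (-1.88 to 0.12). Scaling to all reads moved the median over genes from 0.01 to -0.13, and the mean of log2 values moved it to 0.51, with 94.5% of called genes higher in pregnancy, against 67.6%. A pseudocount of 1 CPM called 24.6% of genes, 100 CPM 1.15%. No paired analysis was possible because numbers shared by adult and pregnancy titles only name cells, and no result comes from a test. A median cell's single read was worth 4.34 to 9.87 CPM, which limits what low members can show.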
